A study of Mus musculus with 8 samples.

Results

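Cholesterol is built from acetyl-CoA by a chain of enzymes in the cytosol and the endoplasmic reticulum, and the 8 genes described here are 7 enzymes of that chain (Hmgcs1, Idi1, Fdft1, Sqle, Lss, Cyp51 and Dhcr7) and Insig1, which encodes an anchor protein of the sterol sensor. They were selected by gene symbol, and all 8 were found among the 22520 genes of the deposited RNA-sequencing (RNA-seq) table. The libraries were made from C57BL/6 mouse microvascular cells at postnatal day 14, which the labels describe as a mix from heart, liver and lung. The comparison was of 4 libraries with endothelial deletion of LRP1 (LRP1 KO) against 4 from wild-type littermates (WT). LRP1 is a large endocytic receptor that takes up lipoproteins and other ligands. According to the study's methods, both groups carried floxed LRP1 alleles (LRP1 f/f), the knockout also carried the Cdh5-CreER transgene, a tamoxifen-inducible Cre recombinase driven by the promoter of the endothelial gene Cdh5, and cells were selected with beads against the endothelial surface protein PECAM-1. The study reports liver cells apart from heart and lung cells, so whether its methods hold in full for these mixed libraries is not known. The labels do not say how many animals a library holds, so the p-values measure the spread between these libraries. Levels are given as FPKM, the number of fragments per kilobase of a gene's transcript, scaled to the library, a unit inferred from the values.

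Cells adjust this pathway to their sterol supply. When membranes of the endoplasmic reticulum are low in cholesterol, SCAP escorts SREBP-2, the product of Srebf2, to the Golgi, where it is cut and released as a transcription factor that activates the genes of the chain. When sterols are plentiful, INSIG proteins hold SCAP and SREBP-2 in the endoplasmic reticulum. Insig1 is itself a target of SREBP-2, so its mRNA is widely used as a readout of the same program. In endothelial cells, cholesterol comes both from this chain and from uptake of lipoproteins by receptors.

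Facts of the whole table touch all values below. Lrp1, the targeted gene, ranged from 103 to 140 FPKM in WT and from 2.79 to 7.72 FPKM in LRP1 KO, with the highest knockout value in LRP1 KO library 4. The columns had been quantile normalized, their sums ran from 503571 to 504112, and the depth of each library is unknown. LRP1 KO library 4 stood apart from its group, at 0.102 on the first principal component, where the rest of its group spanned 17.2 to 27.3 and WT spanned -24.1 to -12.9. The labelled cell type was only partly matched by its markers, since the endothelial genes Pecam1 (6.80 to 8.76 FPKM) and Cdh5 (8.87 to 11.2 FPKM) were low in WT beside the collagen gene Col1a1 (395 to 565 FPKM). Since these were bulk samples, fewer cells of a type and less RNA per cell cannot be told apart.

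To show what the promoters of these genes hold, the 250 bases before the transcription start were read from RefSeq (GRCm38.p6), which matched 6 of the 8 genes (all but Sqle and Fdft1). Printed are the windows of Hmgcs1, which holds the longest motif of the search, and of Insig1, which had the strongest fall among the 8 genes. The window of Lss is printed as an enzyme promoter with a CCAAT box and GC boxes. Where the GENCODE gene starts upstream of the RefSeq start, the printed run ends at the GENCODE start. Capitals mark matches on either strand to the sterol regulatory element TCACNCCAC, its shorter core CACNCCAC, which lies within it, the CCAAT box and the GC box GGGCGG.
Hmgcs1, chr13:119690101-119690350, plus strand: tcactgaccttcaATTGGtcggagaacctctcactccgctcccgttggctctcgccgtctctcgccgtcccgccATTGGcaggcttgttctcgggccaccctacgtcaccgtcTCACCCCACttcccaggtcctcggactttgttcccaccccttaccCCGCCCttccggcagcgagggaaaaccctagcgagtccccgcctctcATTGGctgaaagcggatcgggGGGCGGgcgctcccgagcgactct
Insig1, chr5:28071162-28071362, plus strand: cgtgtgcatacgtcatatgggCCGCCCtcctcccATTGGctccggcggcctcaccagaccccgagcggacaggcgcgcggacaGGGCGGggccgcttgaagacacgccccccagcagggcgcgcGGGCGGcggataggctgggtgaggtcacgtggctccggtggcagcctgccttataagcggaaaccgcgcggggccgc
Lss, chr10:76531355-76531587, plus strand: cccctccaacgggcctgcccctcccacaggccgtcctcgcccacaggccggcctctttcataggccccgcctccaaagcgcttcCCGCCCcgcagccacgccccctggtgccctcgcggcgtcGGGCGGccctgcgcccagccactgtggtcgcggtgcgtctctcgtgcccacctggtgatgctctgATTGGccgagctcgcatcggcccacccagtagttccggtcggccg

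The sterol regulatory element is the sequence that SREBP proteins bind, the CCAAT box is bound by NF-Y and the GC box by Sp1, factors known to act beside SREBP. A full match to TCACNCCAC was found in Hmgcs1 alone, 137 bases before its start, against 1.22% of the 27025 genes with RefSeq promoter windows of the same length. The shorter CACNCCAC was present in Hmgcs1 and Insig1, in the latter 9 bases before the RefSeq start and past the end of the printed run, against 6.05% of all genes. A CCAAT box was present in all 6 matched genes, against 37.5% of all genes, and so was a GC box, against 35.4%, each counted in any window of a gene. The matches of Idi1 and the CCAAT box of Cyp51 lie past the GENCODE start, within the annotated gene. In Dhcr7, which has 3 RefSeq starts, the CCAAT boxes were found before a downstream start, and GC boxes before that start and the most upstream one. These matches describe letters in a window and do not show binding.

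In LRP1 KO, 6 of the 8 genes fell, Fdft1, Sqle, Lss, Cyp51, Hmgcs1 and Insig1, and the estimates for Idi1 and Dhcr7 were below 0 but did not pass. The knockout means were between 55.6% and 69.1% of the WT means. Differences were tested with limma on log2(FPKM + 1), and a gene passed at an adjusted p-value under 0.05 over all 11389 tested genes, of which 13.6% passed and 7.31% passed with a lower level in LRP1 KO. The median log2 fold change of the 8 genes was -0.61, and that of all tested genes was -0.01. In all 8 genes the estimate was below 0, as it was in 51.9% of all tested genes. None of the 8 genes passed with a 2-fold change, as 1.62% of tested genes did. In 6 of the 8 genes all LRP1 KO libraries lay below all WT libraries, a separation found in 10.7% of tested genes, while 8.84% were separated in the other direction.

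**Figure D1:**
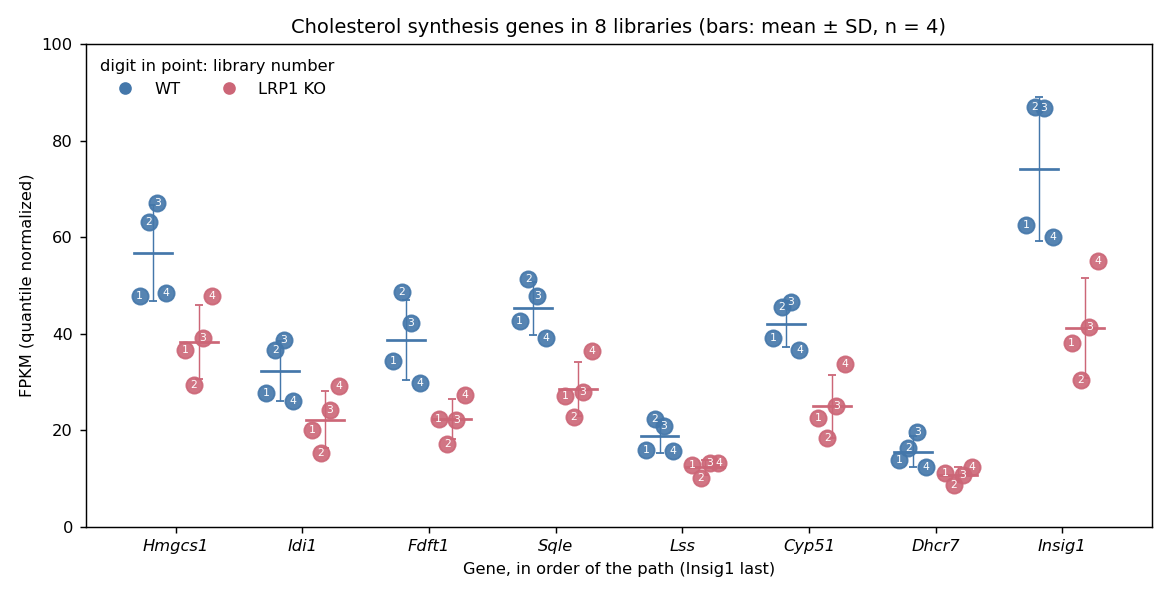
Level of the 8 genes (FPKM, vertical axis) in each of the 4 WT (blue) and 4 LRP1 KO (red) libraries, with the library number in each point and the mean ± SD as bars. LRP1 KO library 2 is the lowest point for every gene, and LRP1 KO library 4 reaches into the WT range for Idi1 and Dhcr7.

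Hmgcs1 encodes the cytosolic HMG-CoA synthase, which makes the HMG-CoA that feeds the mevalonate path. The gene lies on chromosome 13 (GRCm38, chr13:119690379-119708260, plus strand). WT libraries 1 to 4 gave 47.9, 63.1, 67.2 and 48.5 FPKM, against 36.7, 29.4, 39.0 and 47.9 FPKM for LRP1 KO libraries 1 to 4. The groups did not overlap, but LRP1 KO library 4 and WT library 1 were almost level. Hmgcs1 averaged 56.6 ± 9.92 FPKM in WT versus 38.2 ± 7.63 FPKM in LRP1 KO (SD, n = 4 each), which was 67.5% of WT. The log2 fold change was -0.56 (SE 0.16, limma adjusted p = 0.0458). Of the 8 genes it was the closest to the threshold among those that passed, and over the 16 alternative fits its adjusted p-value ran from 0.0109 to 0.126.

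Idi1 encodes isopentenyl diphosphate isomerase, which interconverts the activated isoprene units that later enzymes join. Its values (chr13:8885501-8892451, plus strand) were 27.6, 36.6, 38.6 and 26.2 FPKM in WT, against 20.1, 15.3, 24.2 and 29.1 FPKM in LRP1 KO. The groups overlapped because LRP1 KO library 4 exceeded WT libraries 1 and 4. With a mean of 32.3 ± 6.27 FPKM in WT versus 22.2 ± 5.86 FPKM in LRP1 KO (SD, n = 4 each), its log2 fold change of -0.54 (SE 0.19) did not pass (limma adjusted p = 0.0885). The 95% interval of the difference was -0.97 to -0.10. Of the 50-base stretches in its longest coding transcript, 21.3% also occur in transcripts of pseudogene models such as Gm13502, so reads could be shared with copies of Idi1.

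Fdft1 encodes squalene synthase, the enzyme that commits farnesyl units to sterols. On the minus strand of chromosome 14 (chr14:63145150-63179578), it was measured at 34.4, 48.6, 42.2 and 29.9 FPKM in WT, against 22.4, 17.2, 22.1 and 27.4 FPKM in LRP1 KO. No LRP1 KO library reached the WT range. Among the 7 enzymes Fdft1 had the lowest level relative to WT, with 38.8 ± 8.29 FPKM in WT versus 22.3 ± 4.16 FPKM in LRP1 KO (SD, n = 4 each), or 57.4%. The fall was 0.77 on the log2 scale (log2 fold change -0.77, SE 0.17, limma adjusted p = 0.0211). Its exons share 18.3% of their bases with exons of Ctsb on the opposite strand. Whether the reads were counted by strand is not given in the sources used here. Of the 50-base stretches in its longest coding transcript, 10.9% also occur in transcripts of Gm6781.

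Sqle encodes squalene epoxidase, an oxygen-dependent and rate-controlling step. Its values (chr15:59315077-59331192, plus strand) were 42.6, 51.4, 47.7 and 39.2 FPKM in WT, against 27.1, 22.8, 28.0 and 36.4 FPKM in LRP1 KO, without overlap. The mean was 45.2 ± 5.41 FPKM in WT versus 28.6 ± 5.66 FPKM in LRP1 KO (SD, n = 4 each). Sqle had the smallest adjusted p-value of the 8 genes (log2 fold change -0.66, SE 0.13, limma adjusted p = 0.0173). No annotated gene overlaps its exons.

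Lss encodes lanosterol synthase, which folds the epoxide made by Sqle into the first sterol. It lies at chr10:76531588-76557138 on the plus strand. Its levels were 15.9, 22.3, 20.9 and 15.8 FPKM in WT against 12.8, 10.04, 13.1 and 13.1 FPKM in LRP1 KO. The groups did not overlap, and LRP1 KO libraries 1, 3 and 4 were nearly equal. Lss fell to 65.7% of the WT mean, from 18.7 ± 3.38 to 12.3 ± 1.51 FPKM (SD, n = 4 each), with a log2 fold change of -0.56 (SE 0.13, limma adjusted p = 0.0264). The ratio of Sqle to Lss in FPKM was 2.44 ± 0.186 in WT and 2.32 ± 0.306 in LRP1 KO (SD, n = 4 each), which did not differ beyond the spread (exact two-sided permutation test, p = 0.514).

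Cyp51 encodes lanosterol demethylase, a cytochrome P450 of the endoplasmic reticulum. On the minus strand of chromosome 5 (chr5:4081145-4104746), its level was 39.1, 45.6, 46.6 and 36.7 FPKM in WT, against 22.5, 18.5, 25.0 and 33.7 FPKM in LRP1 KO. Again no LRP1 KO library reached the lowest WT library, although LRP1 KO library 4 was close to it. The log2 fold change was -0.75 (SE 0.16, limma adjusted p = 0.0198), from 42.0 ± 4.83 FPKM in WT to 24.9 ± 6.44 FPKM in LRP1 KO (SD, n = 4 each).

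Dhcr7 encodes the reductase that finishes cholesterol from dehydrocholesterol, and had the lowest level of the 8 genes. Its values (chr7:143823145-143848410, plus strand) were 13.9, 16.3, 19.6 and 12.3 FPKM in WT, against 11.1, 8.65, 10.8 and 12.4 FPKM in LRP1 KO. The overlap came from LRP1 KO library 4, which lay just above WT library 4. The means were 15.5 ± 3.18 FPKM in WT versus 10.7 ± 1.55 FPKM in LRP1 KO (SD, n = 4 each), and the log2 fold change of -0.48 (SE 0.14) did not pass (limma adjusted p = 0.0535). Its 95% interval was -0.81 to -0.16.

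Insig1, which encodes the protein that retains SCAP, had the highest level and the strongest fall of the 8 genes. The gene (chr5:28071363-28078662, plus strand) had values of 62.5, 87.0, 86.8 and 60.0 FPKM in WT, against 38.0, 30.4, 41.4 and 55.0 FPKM in LRP1 KO. The groups did not overlap, and LRP1 KO library 4 was again the nearest to WT. Its mean fell from 74.1 ± 14.9 to 41.2 ± 10.3 FPKM (SD, n = 4 each), or 55.6% of WT, with a log2 fold change of -0.84 (SE 0.19, limma adjusted p = 0.0221). For each of the 6 genes without overlap, an exact two-sided permutation test of log2 values gave p = 0.0286. This is the smallest p that 4 libraries against 4 allow, and it follows from the lack of overlap. The same test gave 0.0857 for Idi1 and 0.0571 for Dhcr7.

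The order of the libraries was much the same in each gene. WT libraries 2 and 3 were above WT libraries 1 and 4 in all 8 genes, LRP1 KO library 2 was the lowest of all libraries in all 8, and LRP1 KO library 4 was the highest of its group in 7. The summed level of the 8 genes was 284, 371, 370 and 268 FPKM in WT, against 191, 152, 204 and 255 FPKM in LRP1 KO, in order of library number. Insig1 and the 7 enzymes were thus high or low in the same libraries. Relative to the WT mean, the mean log2 level of the 8 genes was -0.16, 0.20, 0.21 and -0.25 in WT, and -0.67, -0.99, -0.60 and -0.32 in LRP1 KO. With the group means removed, Pearson's r between pairs of the 8 genes over the 8 libraries ran from 0.73 to 0.99 with a median of 0.92 over the 28 pairs, and the first component held 93.1% of their variance. These correlations rest on 8 libraries that all genes share.

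**Figure D2:**
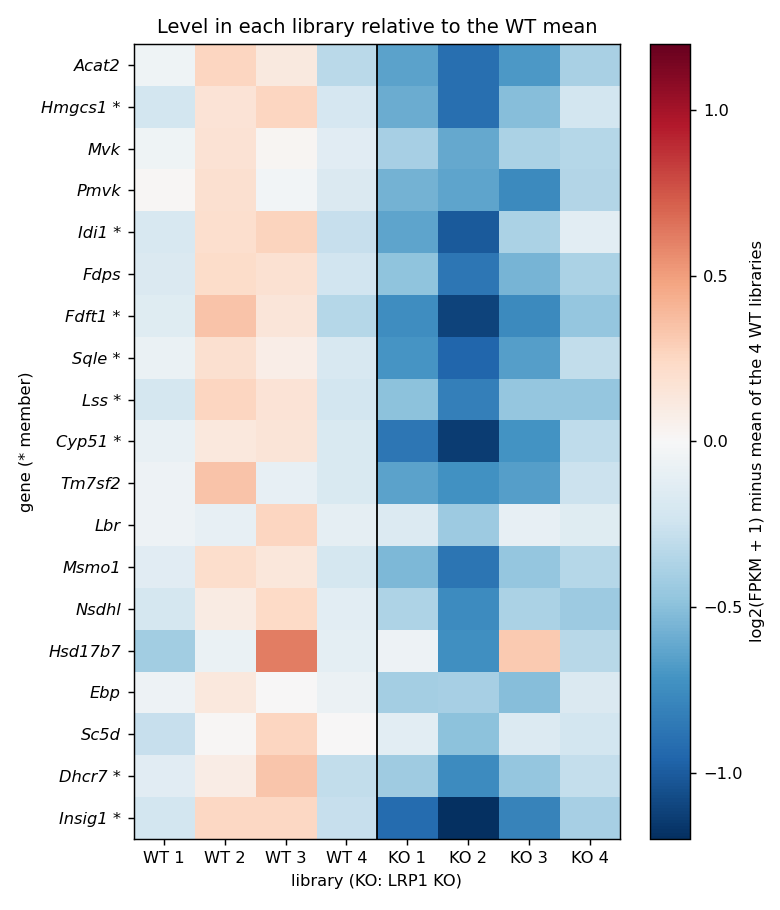
Log2(FPKM + 1) of 19 genes (rows, in pathway order with Insig1 last, an asterisk marks the 8 genes described) in the 8 libraries (columns), minus the mean of the 4 WT libraries, as colour. The LRP1 KO columns are mostly blue, darkest in LRP1 KO library 2, and among WT the columns of libraries 2 and 3 are mostly red.

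The spread within groups was as wide as the change between them for several genes. The highest WT library was 1.27 (Cyp51) to 1.63 (Fdft1) times the lowest, and in LRP1 KO this ratio ran from 1.31 (Lss) to 1.90 (Idi1), while the WT mean was 1.45 (Dhcr7 and Idi1) to 1.80 (Insig1) times the LRP1 KO mean. The calls depended on single libraries and on the filter, since 3 of the 8 genes passed when low genes were kept and 18026 genes were tested. With the replicate number as a block, 1 of the 8 passed. Of the 8 genes, 6 passed with all libraries, 0 passed without WT library 2, without LRP1 KO library 1 or without LRP1 KO library 3, 1 passed without LRP1 KO library 2 and 2 passed without WT library 3. Without WT library 1 the number was 5, without WT library 4 it was 6, and without LRP1 KO library 4, which stood apart, it was 8. All tested genes lost calls as well when a library was left out, to between 433 and 989 genes from 1547, except without LRP1 KO library 4, where 2959 passed. Over these 8 fits the median log2 fold change of the 8 genes ranged from -0.72 to -0.52, and each gene's estimate was below 0 in each fit. Sqle passed in 5 of the 8 fits, Cyp51 in 4, Fdft1, Lss and Insig1 in 3, Dhcr7 in 2, and Hmgcs1 and Idi1 in 1.

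**Figure D3:**
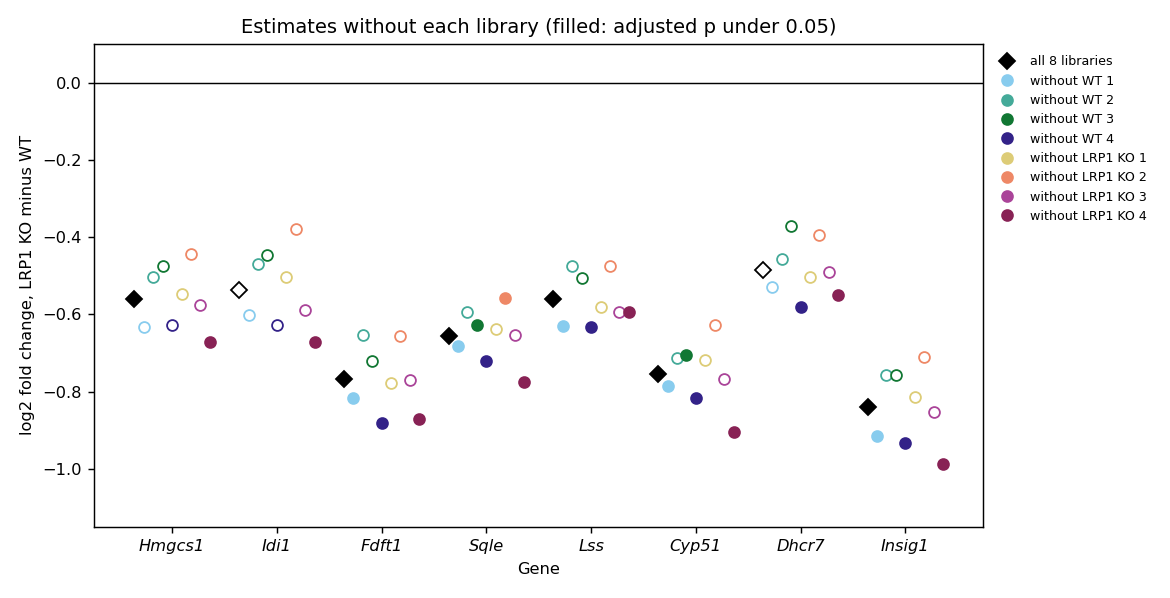
Log2 fold change (LRP1 KO minus WT, vertical axis) of the 8 genes with all 8 libraries (diamonds) and with each library left out (circles, coloured by library), filled where the adjusted p-value was under 0.05. All estimates lie below 0, between -0.99 and -0.37, and filled circles are fewer than open ones.

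The rest of the chain was examined with a list of 14 other synthesis enzymes, of which 13 were in the table (Mvd was not analysed here). Of the 13, 9 fell, beside 7.31% of all tested genes, and none rose. All 13 estimates were below 0, as were 51.9% over the table, with a median log2 fold change of -0.49. Upstream, Acat2, which joins acetyl-CoA units, fell from 22.5 ± 3.95 to 13.9 ± 2.23 FPKM (log2 fold change -0.66, SE 0.14, limma adjusted p = 0.0202). The mevalonate kinases followed it: Mvk was at 28.6, 33.5, 30.2 and 26.8 FPKM in WT, against 22.2, 19.1, 22.6 and 23.2 FPKM in LRP1 KO, without overlap. Its log2 fold change was -0.43 (SE 0.08, limma adjusted p = 0.0148). Pmvk, the next kinase, was at 24.9, 28.3, 24.0 and 21.6 FPKM in WT, against 16.3, 15.5, 14.1 and 19.1 FPKM in LRP1 KO, again without overlap, and its log2 fold change was -0.58 (SE 0.10, limma adjusted p = 0.0107). Mvk and Pmvk were the 2 synthesis enzymes that passed in each of the 8 fits with a library left out and in each of the 8 other alternatives. Fdps, which makes farnesyl diphosphate and had the highest level of the chain, fell from 121 ± 19.8 to 81.2 ± 11.3 FPKM (log2 fold change -0.57, limma adjusted p = 0.0262).

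After lanosterol, Msmo1 (listed as Sc4mol), a methyl oxidase, fell from 117 ± 16.7 to 79.5 ± 12.1 FPKM, a log2 fold change of -0.55 (limma adjusted p = 0.0270). Its partner Nsdhl, a sterol dehydrogenase, changed by -0.49 (adjusted p = 0.0303 in limma) and the isomerase Ebp by -0.37 (adjusted p = 0.0219). Both stayed without overlap between groups. The sterol reductase Tm7sf2 changed by -0.57 (limma adjusted p = 0.0292).

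Among the enzymes that did not pass was Lbr, which encodes a nuclear envelope protein with sterol reductase activity and had a log2 fold change of -0.21 (limma adjusted p = 0.202). The change was -0.25 for the desaturase Sc5d (limma adjusted p = 0.164) and -0.20 for the ketoreductase Hsd17b7 (limma adjusted p = 0.610), whose WT values spread from 7.39 to 16.2 FPKM. The count of 9 enzymes became 2 without WT library 2, 4 without WT library 3, and 3 without LRP1 KO library 1, 2 or 3, and it was 8 or 9 without any other library.

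**Figure D4:**
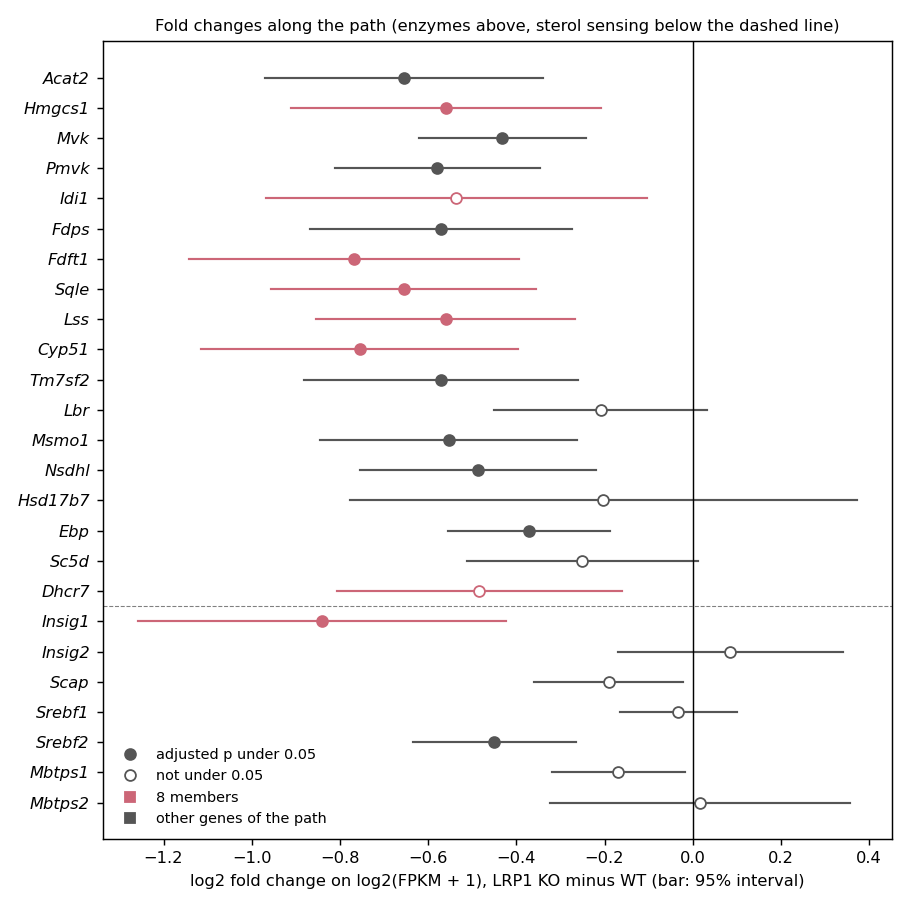
Log2 fold change on log2(FPKM + 1), LRP1 KO minus WT (horizontal axis, bars: 95% interval), of 18 enzymes in pathway order and, under the dashed line, of 7 sterol-sensing genes including Insig1. Red marks the 8 genes described, and filled points passed at an adjusted p under 0.05. All plotted enzyme estimates lie left of 0, while below the line Srebf2 is the filled point beside Insig1.

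Control of the chain was examined in 20 genes for sterol sensing and SREBP activation, of which 2 fell, beside 7.31% of all tested genes, and 18 did not pass. The first was Srebf2 itself, at 36.3, 41.8, 42.0 and 39.6 FPKM in WT, against 27.1, 26.3, 29.5 and 33.3 FPKM in LRP1 KO. The groups did not overlap, and the log2 fold change was -0.45 (SE 0.08, limma adjusted p = 0.0119). The second was Mylip, also called IDOL, a ubiquitin ligase that is induced by the oxysterol receptors LXR. Mylip was at 10.2, 10.7, 10.5 and 12.1 FPKM in WT, against 6.49, 7.84, 6.84 and 8.48 FPKM in LRP1 KO (log2 fold change -0.50, SE 0.09, limma adjusted p = 0.0109). Both passed in all 16 alternative fits. Srebf1 and Insig2, relatives of Srebf2 and Insig1, did not pass. Srebf1, the gene of SREBP-1, averaged 33.5 ± 1.38 FPKM in WT versus 32.8 ± 2.003 FPKM in LRP1 KO (log2 fold change -0.03, 95% interval -0.17 to 0.10), and Insig2 at 20.9 ± 1.99 and 22.3 ± 3.65 FPKM (log2 fold change 0.09, 95% interval -0.17 to 0.34).

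The escort Scap changed by -0.19 on the log2 scale (limma adjusted p = 0.112), and the protease genes Mbtps1 and Mbtps2, which cut SREBP in the Golgi, by -0.17 (limma adjusted p = 0.114) and 0.02 (limma adjusted p = 0.954). None of these passed. The LXR gene Nr1h3 was at -0.34 (limma adjusted p = 0.0773) and the LXR target Abcg1, a cholesterol exporter, at 0.33 (limma adjusted p = 0.221). The ratio of Insig1 to Srebf2 in FPKM was 1.85 ± 0.277 in WT and 1.40 ± 0.202 in LRP1 KO (SD, n = 4 each), which missed the threshold (exact two-sided permutation test, p = 0.0571). Without LRP1 KO library 4, 7 of the 20 genes passed in place of 2. In that fit 2959 of all 11297 tested genes passed, in place of 1547. Leaving out any other library gave 2 of the 20.

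Among 9 tested genes of a list of other SREBP-2 targets, 3 fell and 1 rose, beside 7.31% and 6.27% of all tested genes. The sterol carrier Stard4 changed by -0.31 (limma adjusted p = 0.0392) and Mmab, an enzyme of cobalamin metabolism, by -0.34 (limma adjusted p = 0.0239). The gene that rose, Nsun2 (log2 fold change 0.25, limma adjusted p = 0.0418), encodes an RNA methyltransferase, not a lipid enzyme. Its place among SREBP-2 targets was not tested here, and the other 8 estimates of the list were below 0. The count of 4 was 0 without WT library 2 or 3 or without LRP1 KO library 1 or 2, and 1 without WT library 4 or LRP1 KO library 3.

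Fatty acid synthesis, which SREBP-1 chiefly controls, was represented by 12 tested genes. Of these 6 fell, beside 7.31% of all tested genes, and none rose in limma. At an unadjusted limma p under 0.05, 10 were lower and none higher, beside 3838 of 11389 tested genes in either direction. The desaturases Fads2 (129 ± 3.63 to 96.0 ± 10.1 FPKM, log2 fold change -0.42, limma adjusted p = 0.0106) and Fads1 (89.1 ± 2.86 to 68.7 ± 6.32 FPKM, log2 fold change -0.37, limma adjusted p = 0.0112) passed in all 16 alternative fits. The acetyl-CoA synthetase Acss2 changed by -0.29 (limma adjusted p = 0.0283) and the desaturase Scd2 by -0.43 (limma adjusted p = 0.0327). The others that fell were Slc25a1, the mitochondrial citrate carrier, and the elongase Elovl6. The count of 6 was 2 without WT library 2 or 3 or any of LRP1 KO libraries 1 to 3. It was 7 without LRP1 KO library 4, where 2959 of 11297 tested genes passed.

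A further list held enzymes that lead from the mevalonate path to products other than sterols. Of 14 such genes for protein prenylation, dolichol and ubiquinone, none fell in limma (1 was lower at an unadjusted p under 0.05) and 1 rose, beside 6.27% of all tested genes. This was Nus1, a subunit of the dolichol-making prenyltransferase, at 24.1, 22.1, 24.7 and 26.3 FPKM in WT, against 34.3, 32.8, 35.2 and 28.2 FPKM in LRP1 KO. The groups did not overlap, and the log2 fold change was 0.41 (SE 0.08, limma adjusted p = 0.0160). Ggps1, which makes geranylgeranyl diphosphate, was at 0.22 (limma adjusted p = 0.0623), the prenyltransferase subunit Pggt1b at 0.32 (limma adjusted p = 0.157) and the CAAX protease Rce1 at -0.24 (limma adjusted p = 0.128), and none of these passed. The median over the 14 genes was 0.05 against -0.49 over the other synthesis enzymes. Nus1 no longer passed without WT library 2 or without LRP1 KO library 1, 2 or 3, while 2 genes of the list passed without WT library 3.

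Of 9 tested genes for the storage and turnover of cholesterol, 2 fell, beside 7.31% of all tested genes, both encoding oxysterol hydroxylases. Cyp39a1 was at 13.4, 16.5, 14.4 and 13.1 FPKM in WT, against 5.93, 7.69, 5.14 and 10.9 FPKM in LRP1 KO (log2 fold change -0.91, SE 0.18, limma adjusted p = 0.0170). Cyp7b1 was at 4.33, 6.25, 3.78 and 2.67 FPKM in WT, against 0.410, 1.44, 0.538 and 2.62 FPKM in LRP1 KO, and its log2 fold change of -1.29 (SE 0.31, limma adjusted p = 0.0284) was beyond 2-fold. For both genes LRP1 KO library 4 was the nearest to WT. Cyp27a1, another sterol hydroxylase, was at -0.42 (limma adjusted p = 0.0623) and did not pass. Soat1, which esterifies cholesterol for storage, was at 0.16 (limma adjusted p = 0.184), and Lipa, the lysosomal acid lipase, at 0.21 (limma adjusted p = 0.0958), so neither passed. The count of 2 was 0 without WT library 2 or LRP1 KO library 1, and 1 without WT library 1 or 3 or LRP1 KO library 2 or 3. It was 3 without LRP1 KO library 4, where 2959 of 11297 tested genes passed.

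Genes that followed the set most closely were sought by the correlation with the mean of the 8 standardized genes over the 8 libraries, with group means removed. Outside the pathway lists the 5 highest of 11389 were Ccdc163 (r = 0.98), Slc39a8, a zinc and manganese transporter (r = 0.98), Arl8b, a lysosomal GTPase (r = 0.98), Cdc42ep3 (r = 0.97) and D19Ertd737e (r = 0.96). Of these, Slc39a8 and Cdc42ep3 also fell, with log2 fold changes of -0.82 (limma adjusted p = 0.0134) and -0.60 (limma adjusted p = 0.00905), while Arl8b was at 0.01 (limma adjusted p = 0.877). Within the chain, Msmo1, Fdps and Acat2 followed the set with r of 0.98, 0.96 and 0.94. Srebf2 reached 0.86 and Srebf1 -0.09. An r over 0.8 was found in 6 of the 13 other synthesis enzymes and in 1.96% of all tested genes. All these values rest on the same 8 libraries.

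Markers of cell types differed between the groups as well. Of 11 tested macrophage genes, Adgre1 and Mrc1 passed the filter on low values only through the LRP1 KO libraries. Of the other 9, 7 rose in LRP1 KO (6 or 7 with a library left out), beside 6.27% of all tested genes. The sum of the list was 90.5 to 115 FPKM in WT, against 388, 581, 241 and 528 FPKM in LRP1 KO. The WT libraries also held macrophage markers, from Fcgr1 (0 to 0.0151 FPKM) and Adgre1 (0.126 to 0.475 FPKM) to Cd68 (7.36 to 8.87 FPKM), Cd14 (29.9 to 47.9 FPKM) and Lyz2 (24.0 to 54.3 FPKM), and no marker of the list was at 0 in all libraries. Cd14 had an estimate below 0 (log2 fold change -0.47, limma adjusted p = 0.136), and passed as lower without LRP1 KO library 4. LRP1 KO library 2, with the lowest level of the 8 genes, had the highest macrophage sum, but LRP1 KO library 4, with the next highest sum, had the level of the 8 genes nearest to WT. All 13 tested endothelial genes had estimates above 0, and 1 (Eng) passed with all libraries, beside 6.27% of all tested genes passing as higher. An unadjusted limma p under 0.05 was found in 10, beside 3838 of 11389 tested genes in either direction. All 13 passed without LRP1 KO library 4, where 1387 of 11297 tested genes passed as higher, and 0 passed without any other library. The endothelial sum was 152 to 167 FPKM in WT, against 602, 372, 438 and 158 FPKM in LRP1 KO, so library 4 lay within the WT range. In that library, where the endothelial sum was at the WT level, the mean log2 level of the 8 genes was -0.32 relative to the WT mean, just below WT library 4 at -0.25.

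Among the other marker lists, 4 of 8 tested mural genes rose (Acta2, Tagln, Cnn1 and Des), beside 6.27% of all tested genes. Without LRP1 KO library 4 there were 6, where 1387 of 11297 tested genes passed as higher. The mural sum was 670 to 836 FPKM in WT and 1039 to 1627 FPKM in LRP1 KO. Pdgfrb and Rgs5 of that list had lower means in LRP1 KO, against 7 with higher means. Of 8 tested fibroblast genes 2, Pdgfra and Dpt, fell, beside 7.31% of all tested genes (sum 2329 to 3514 FPKM in WT, 1940 to 3098 FPKM in LRP1 KO). Without LRP1 KO library 4, where 1572 of 11297 tested genes passed as lower, there were 5 such fibroblast genes, and without any other library 0. Hepatocyte genes, from a tissue with high cholesterol synthesis, summed to 3.02 to 3.87 FPKM in WT versus 1.72 to 2.65 FPKM in LRP1 KO, and the albumin gene Alb did not exceed 0.108 FPKM. The cardiomyocyte list summed to 102 to 156 and 90.1 to 126 FPKM in WT and LRP1 KO, but 94.0% of the WT sum was Tnnt2. Of its 8 genes 6 had higher means in LRP1 KO, among them Myh6 at no more than 0.414 FPKM in WT and at least 0.646 FPKM in LRP1 KO, although none of its 3 tested genes passed with all libraries. At an unadjusted limma p under 0.05, as were 3838 of 11389 tested genes, were Tnnt2 (log2 fold change -0.35) and Myl7 (log2 fold change 0.96). Tnnt2 passed as lower without WT library 3, and Myl7 passed as higher without LRP1 KO library 4. The lung epithelium list summed to 4.14 to 7.50 and 3.63 to 6.87 FPKM. Of its 2 tested genes 1, Scgb1a1, fell (log2 fold change -0.85, limma adjusted p = 0.00770), beside 7.31% of all tested genes. It also fell with each library left out. The lymphocyte list summed to 0.197 to 0.492 and 1.19 to 1.72 FPKM, with Cd3e, Cd3g and Cd8a at 0 in all libraries. Il7r, which made up 89.8% of the lymphocyte sum in LRP1 KO, was the 1 lymphocyte gene past the filter on low values, only through the LRP1 KO libraries, at 0.128 to 0.320 FPKM in WT, against 1.15 to 1.46 FPKM in LRP1 KO. None of the 15 cell cycle genes passed in limma, and 2 passed without LRP1 KO library 4, where 2959 of 11297 tested genes passed. At an unadjusted limma p under 0.05 were 3 of the 15, beside 3838 of 11389 tested genes. The cell cycle sum was 198 to 265 FPKM in WT versus 226 to 285 FPKM in LRP1 KO. The part of these markers in the fall of the synthesis genes was not tested.

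**Figure D5:**
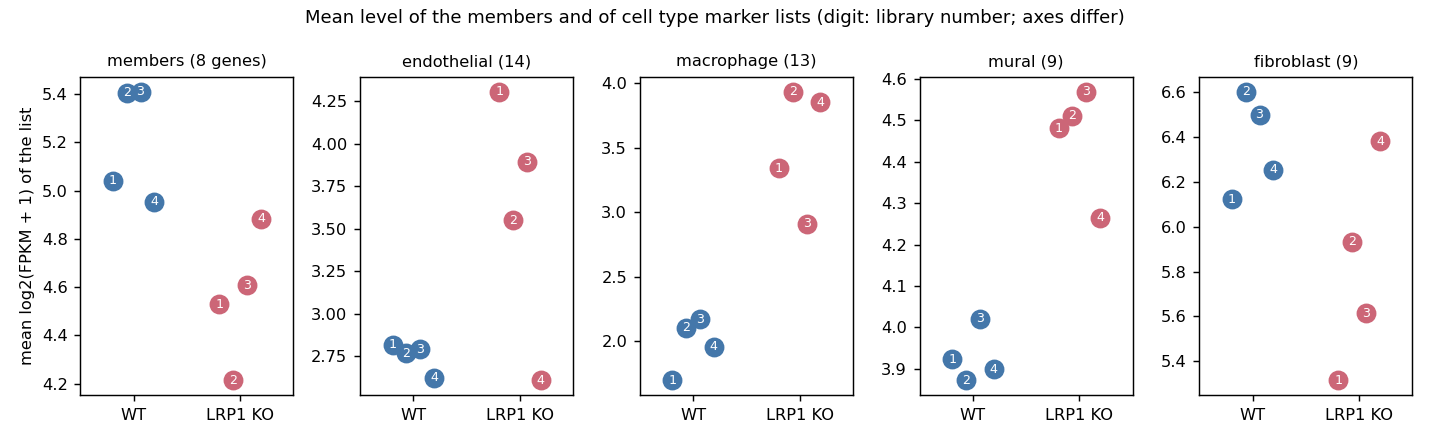
Mean log2(FPKM + 1) of the 8 genes and of 4 marker lists (number of genes in brackets) in each WT (blue) and LRP1 KO (red) library, with the library number in each point and a separate vertical scale in each panel. LRP1 KO library 4 sits with WT in the endothelial panel, among the highest in the macrophage panel, and below all WT libraries for the 8 genes.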

How the data were processed

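RNA of mouse microvascular cells was sequenced on an Illumina HiSeq from TruSeq libraries. The authors deposited 1 table of gene-level values, taken here as FPKM, that had been quantile normalized across the 8 libraries. The unit is inferred from the values. The submitters' processing notes name TopHat2, Cufflinks and mm10, whereas the methods of the study describe STAR and featureCounts, whose counts this table does not hold. Strand handling is not given in the sources used here. No raw counts could be recovered, so depth and counting error are unknown and precision rests on 4 libraries per group. Quantile normalization also forces 1 distribution on all libraries, so a shift of total RNA cannot be seen. Because the values are not counts, they were tested as log2(FPKM + 1).

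Genes with at least 1 FPKM in at least 4 libraries (11389 of 22520) were fitted with limma 3.58.1 in R 4.3.3 (moderated variance with a trend, group as the only term), with Benjamini-Hochberg adjustment over all of them and a threshold of 0.05. Estimates on this scale understate the change of low genes. Single genes and ratios were compared with exact two-sided permutation tests over all 70 ways to choose 4 of 8 libraries. The fit was tested on simulated data with independent noise in each gene and library, without the differences between libraries that genes share here. Groups came from the sample titles. Alternatives were pseudocounts of 0.1 and 0.5, no filter, a mean of at least 5, rescaling by the median ratio, no variance trend, library weights, a replicate block, and each library left out. Named were all 8 genes and all other synthesis enzymes, sterol-sensing genes that passed or had a log2 fold change of at least 0.3 in size, up to 4 genes with the smallest p-value of each further list, and the 5 genes most like the set. Other genes named, such as Srebf1, Insig2, Scap and the markers, were chosen after their values were seen. Some genes covered by the rule are not reported here, but the counts and medians of the lists include them. The 8 genes and the 7 pathway and 9 marker lists were chosen with earlier results of these data known. Positions and exon overlaps came from GENCODE M21 (GRCm38), promoters from RefSeq.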

Additional observations from a re-analysis of the deposited data

Results flagged for a closer look

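In 82 groups of 4 libraries (8 genes, other synthesis enzymes and named pathway genes), the most distant library was compared with the nearest of the others by Dixon's test at the 95% level, as a share of the group's range. Chance passes about 1 in 20 groups, and 3 of the 82 passed. Lss was at 10.04 FPKM in LRP1 KO library 2, below the other LRP1 KO libraries at 12.8 to 13.1 FPKM, a gap of 0.895 of the range. Tm7sf2 was at 7.12 FPKM in LRP1 KO library 4, above the others at 4.87 to 5.19 FPKM (0.857 of the range). Lbr was at 8.56 FPKM in WT library 3, above the others at 6.43 to 6.69 FPKM (0.878 of the range).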

How the results depend on the processing

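The median of the 8 genes (-0.61) stayed between -0.72 and -0.52 with each library left out. Of 41 named genes under 16 alternatives, 502 results kept their direction and side of the threshold, 138 lost significance, 11 gained it, 4 were lacking (genes under the mean of 5) and 1 reversed: Hsd17b7 (main log2 fold change -0.20), which with each library left out ranged from -0.38 to 0.0031, the latter without WT library 3, a cause not tested. Library weights called 3003 genes in place of 1547, 7 of the sterol-sensing genes and 2 of the branch genes. With no filter, where more genes are tested, 3 of the 8 genes, 5 other enzymes, 1 other SREBP-2 target and 1 turnover gene passed, and with a mean of at least 5 there was 1 turnover gene. Leaving out each library gave 433 to 2959 genes over the table, 0 to 8 of the 8 genes, 2 to 9 other enzymes, 2 to 7 sterol-sensing genes, 0 to 4 other SREBP-2 targets, 2 to 7 SREBP-1 targets, 0 to 2 branch genes and 0 to 3 turnover genes. The cause of these moves was not tested. Whether the replicate numbers pair the libraries could not be settled with 4 pairs. Deviations of same-numbered libraries correlated at 0.16, 0.14, 0.34 and -0.31, and 2 of the 4 numbers were matched best by their own. The replicate block called 1013 genes, 1 of the 8 genes, 4 other enzymes, 1 other SREBP-2 target, 3 SREBP-1 targets and 1 turnover gene. Unknown depth limits all precision to the spread between libraries.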
